A study of Mus musculus with 20 samples.

Results

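The 10 genes reported here make up the differentiation programme of visceral smooth muscle: the regulator *Myocd*, the actins *Acta2* and *Actg2*, the actin-binding genes *Tagln*, *Cnn1*, *Smtn*, *Lmod1* and *Synpo2*, the myosin heavy chain *Myh11* and the filament gene *Des*. They were picked by symbol and are 10 of 43280 genes listed in the count files. The study measured RNA and open chromatin in mouse gut mesenchyme with and without *Eed*, a subunit of the Polycomb repressive complex PRC2. RNA came from 12 libraries, 8 embryonic and 4 adult, with 2 libraries in each of 6 groups. Open chromatin came as 4 lists of ATAC-seq peaks, 1 per embryonic group with its replicates pooled.

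Embryonic cells were sorted for GFP from the stomach and the intestine of embryos at E13.5 that the labels give as C57BL/6. Control embryos were Bapx1-cre;Rosa26mTmG and knockout (KO) embryos were Eedfl/fl;Bapx1-cre;Rosa26mTmG, so the Bapx1 Cre driver was present in both genotypes. For the adult libraries the labels name only intestinal mesenchyme and the genotype, WT or EED-KO. The methods describe a sort for GFP from mice of about 10 weeks, Pdgfrb-CreERT2/+;Rosa26mTmG with or without homozygous floxed *Eed*. Tamoxifen, which induces this Cre, was injected on 5 days in a row. The labels give no strain for the adult mice, and the paper lists the Bapx1 Cre line as C57BL/6 and the Pdgfrb Cre, floxed *Eed* and Rosa26mTmG lines as of mixed background.

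*Eed* was read in every library to check the labels. Its normalised level was 40.1 and 41.5 CPM (counts scaled to library size) in the stomach controls against 11.5 and 7.4 in the stomach KO, and 38.1 and 40.1 in the intestinal controls against 10.7 and 8.59 in the intestinal KO. By edgeR quasi-likelihood tests with Benjamini-Hochberg (BH) adjustment it fell in KO stomach (log2 fold change -2.11, SE 0.21, adjusted p 0.00175) and in KO intestine (-2.02, SE 0.21, adjusted p 0.00464), where scaling by spike-in totals gave 0.14 and -0.23, or -2.24 and -2.09 relative to the median gene. The adult controls held 29.7 and 33.4 CPM and the adult libraries labelled *Eed* KO held 25.7 and 25, ranges that did not overlap, with a log2 fold change of -0.32 (SE 0.21, adjusted p 0.317) that was not called. Scaled by library totals the adult value was -0.80 (adjusted p 0.0261), under the fold threshold, and by spike-in totals -0.76 (adjusted p 0.355), or -0.31 and -0.34 relative to the median gene. In TPM adult *Eed* stood at 34.8 and 38.1 in controls and 21.2 and 18.6 in KO. The paper separately measured *Eed* deletion efficiency in isolated pericryptal cells, which is not set beside these counts.

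Embryonic libraries held 30236159 to 39606157 gene counts and adult libraries 11404712 to 15903642. A floor of 3 counts corresponded to 0.189 to 0.263 CPM in the adult libraries and to 0.0758 to 0.0992 CPM in the embryonic libraries, for counting error only. Individual totals were 34115855 and 39606157 in the stomach controls, 35876989 and 36332139 in the stomach KO, 36415106 and 30236159 in the intestinal controls, and 36996971 and 36132378 in the intestinal KO. The adult controls held 11404712 and 12225290 counts, and the adult KO libraries 11423651 and 15903642.

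Replicate 2 stood above replicate 1 in every member in intestinal KO and in some members in stomach KO. In intestinal KO *Myh11* was 5.69 times as high in replicate 2 as in replicate 1, *Lmod1* 2.32 times, *Smtn* 2.13 times and *Myocd* 1.94 times, and in stomach KO the same genes were 2.22, 1.52, 1.42 and 1.33 times as high. Of these genes, *Myh11* was also higher in replicate 2 in stomach controls (129.7 and 201.4 CPM) and in intestinal controls (198.3 and 256.5). So was *Smtn* (53 and 64.8, 71.1 and 76.2). *Lmod1* (14.6 and 14.4, 16.8 and 13.4) and *Myocd* (68.8 and 64.9, 83.6 and 64.6) were lower in control replicate 2. Sex-linked genes also differed between the KO replicates: *Xist* stood at 0.0537 and 52.2 CPM in stomach KO replicates 1 and 2 and at 0.0792 and 56.1 CPM in the intestinal ones, while Y-linked *Ddx3y* stood at 131.8 and 0.0548 CPM and at 119.1 and 0 CPM. All 4 embryonic control libraries held both transcripts, with *Xist* at 36.6 to 125.8 CPM and *Ddx3y* at 30.5 to 80.3 CPM. *Ddx3y* was at or under 0.0732 CPM in each adult library.

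Smooth muscle forms around the gut tube from mesenchyme and supplies its contraction. Myocardin, the product of *Myocd*, acts with serum response factor at short AT-rich sites called CArG boxes to switch on actin, myosin and their partners. Pericytes and myofibroblasts also carry some of these transcripts, so the genes do not mark muscle fibres alone.

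**Figure D1:**
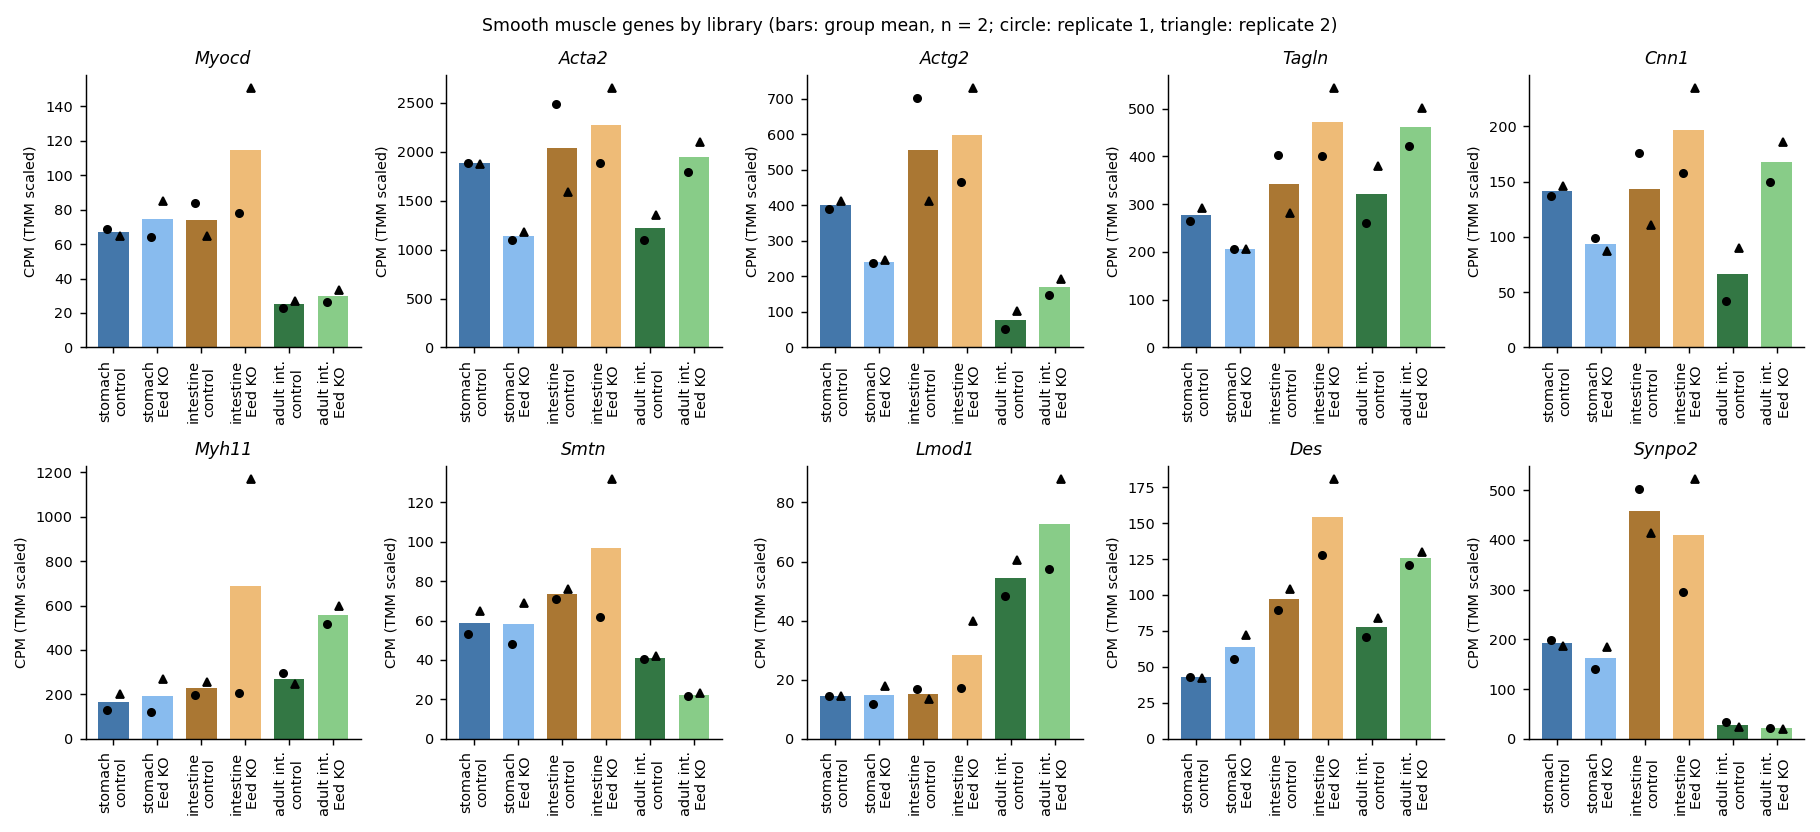
Normalised level (CPM) of each of the 10 members in the 12 libraries, with bars at the group mean, circles for replicate 1 and triangles for replicate 2. *Myh11* reaches 1171 CPM in intestinal KO replicate 2 against 206 CPM in replicate 1.

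Levels were compared between genes per transcript length, in TPM. *Acta2* was the highest member in all 6 groups, at 3212 ± 23.9 TPM (SD, n = 2) in stomach controls, 3423 ± 989.9 in intestinal controls and 1763 ± 227 in adult controls. Stomach controls followed with *Actg2* (779.7), *Tagln* (531.9), *Cnn1* (181.6), *Myh11* (75.8), *Synpo2* (62.1), *Smtn* (40.8), *Des* (34.6), *Myocd* (31.6) and *Lmod1* (11.1), and among neighbours in this order the libraries of *Myh11* and *Synpo2* alone overlapped. The order in intestinal controls differed in that *Synpo2* (145.6) stood above *Myh11* (102.9) and *Des* (77.6) above *Smtn* (50.4), with *Cnn1* and *Synpo2* overlapping. Adult controls ran from *Tagln* (516.5) through *Actg2* (126.1), *Myh11* (105), *Cnn1* (71.3) and *Des* (52.9), a stretch from *Actg2* to *Des* in which every pair of neighbours overlapped, to *Lmod1* (35.3), *Smtn* (24.2), *Myocd* (9.99) and *Synpo2* (7.71). *Acta2* and *Actg2* encode near-identical actins, and reads that may map to both were not measured.

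Summed over the members, the normalised level was 3187 and 3301 CPM in stomach controls, 2083 and 2415 in stomach KO, 4732 and 3327 in intestinal controls, and 3695 and 6365 in intestinal KO. The stomach KO libraries were therefore the lowest of the 8 and the intestinal groups overlapped each other. In the stomach the largest terms of the sum were *Acta2* (mean 1883 CPM in controls, 1141 in KO) and *Actg2* (401 and 241.2). The members did not all fall there: means were higher in KO for *Des* (42.8 and 64.1), *Myh11* (165.5 and 194.6), *Myocd* (66.9 and 74.3) and *Lmod1* (14.5 and 14.8). As a share of gene counts the members took 0.216% (stomach KO replicate 1) to 0.617% (intestinal KO replicate 2). In these bulk libraries fewer expressing cells and less RNA per cell cannot be told apart.

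*Myocd*, the transcriptional regulator, was at 68.8 and 64.9 CPM in stomach controls, 63.8 and 84.7 in stomach KO, 83.6 and 64.6 in intestinal controls, and 77.9 and 150.8 in intestinal KO. The groups overlapped apart from the high value of intestinal KO replicate 2. *Myocd* was not called between genotypes in the intestine (log2 fold change 0.62, SE 0.29, adjusted p 0.422) or between the KO organs (0.62, SE 0.29, adjusted p 0.298). Intestinal KO replicate 2 decided both values: each was 0.07 without it, and without replicate 1 each was 1.02, past the thresholds with adjusted p 0.0497 and 0.037. The stomach genotypes differed by 0.15 (adjusted p 0.802) and the control organs by 0.15 (adjusted p 0.905). In the adult libraries *Myocd* stood at 22.9 and 27.2 CPM in controls and 26.6 and 33.2 in KO, which overlapped, and its log2 fold change of 0.26 (SE 0.23, adjusted p 0.468) was -0.24 when libraries were scaled by their totals, or 0.25 relative to the median gene.

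The alpha-actin gene *Acta2*, whose product builds the thin filaments of smooth muscle, held 1890 and 1877 CPM in stomach controls, 1101 and 1181 in stomach KO, 2491 and 1594 in intestinal controls, and 1886 and 2657 in intestinal KO. *Actg2*, the enteric gamma actin, held 389.2 and 412.8, 237.8 and 244.7, 701.9 and 411.6, and 465.3 and 731.1 CPM in the same order. For both genes the stomach KO libraries lay under every other embryonic library, and the genotypes overlapped in the intestine. The test did not call either in KO stomach (*Acta2* -0.72, SE 0.23, adjusted p 0.11, and *Actg2* -0.73, SE 0.27, adjusted p 0.164). For *Acta2* the adjusted p was 0.0254 by DESeq2, 0.00616 without the low-count filter and 0.0129 with the 4 stomach libraries alone, under the fold threshold each time. DESeq2 with 1 spike-in factor called *Acta2* lower (-1.32, adjusted p 0.00201), though the spike-in share of counts differed between the genotypes. Scaled by spike-in totals, the *Acta2* and *Actg2* values became 1.70 and 1.67, which relative to the median gene were -0.69 and -0.72. *Actg2* was higher in KO intestine than in KO stomach (1.31, SE 0.28, adjusted p 0.0345), with no overlap between libraries. That call was lost without stomach KO replicate 1 (1.29, adjusted p 0.143), stomach KO replicate 2 (1.33, adjusted p 0.159) or intestinal KO replicate 2 (0.95, adjusted p 0.0909). *Acta2* differed between the KO organs by 0.99 (SE 0.23, adjusted p 0.0479), under the fold threshold, and by 1.22 (adjusted p 0.0312) without intestinal KO replicate 1, where it was called. The control organs differed by 0.12 for *Acta2* (adjusted p 0.903) and 0.47 for *Actg2* (adjusted p 0.478).

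Adult *Acta2* was 1097 and 1355 CPM in controls and 1792 and 2101 in KO, and adult *Actg2* was 52.1 and 102.2 against 148.2 and 191.2. The KO libraries of both lay above the control libraries. *Actg2* was called higher (log2 fold change 1.14, SE 0.33, adjusted p 0.0469) and *Acta2* was not (0.67, SE 0.21, adjusted p 0.0573, and 0.0104 by DESeq2). By library totals and by spike-in totals the *Acta2* value was 0.18 and 0.20, or 0.66 and 0.61 relative to the median gene. In TPM *Acta2* stood at 1603 and 1924 in controls and 1843 and 1941 in KO, which overlapped. The *Actg2* call was lost without adult control replicate 1 (0.73, adjusted p 0.173) or adult KO replicate 2 (0.94, adjusted p 0.121), and without adult control replicate 2 the value was 1.71 (adjusted p 0.00377). Side by side and untested, *Actg2* held 779.7 and 1063 TPM on average in embryonic stomach and intestinal controls and 126.1 TPM in adult controls.

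Promoter sequence came from a table of RefSeq promoters that held 6 members, with no entry for *Tagln*, *Myh11*, *Myocd* and *Actg2*. Sequences run 5′→3′ on the gene's strand of GRCm38.p6, from 250 bases before the annotated start to 50 bases into the gene. Capitals mark matches to a relaxed CArG form, in which 1 of the 6 central bases may be G or C, and to the MCAT element CATTCC on either strand. *Acta2* (chromosome 19, 34255324 to 34255623, minus strand) had relaxed CArG matches at positions -84 to -75 and -34 to -25 and an MCAT match at -146 to -141. *Lmod1* (chromosome 1, 135324563 to 135324862, plus strand) had an MCAT match at -130 to -125, and *Smtn* (chromosome 11, 3539243 to 3539542, minus strand) had one at -222 to -217. An exact CArG box was found in 0 of the 6 members and in 1.63% of 32851 promoters. The relaxed form, chosen after the data were seen, was in 1 of 6 members and 8.5% of promoters, with 0.679% of promoters holding 2 or more. MCAT was in 3 of 6 and 14.7% of promoters, and TATAAA in 1 of 6 (*Synpo2*, at -233 to -228 on the strand opposite the gene) and 13.6% of promoters. A match describes sequence and shows no binding.
Acta2: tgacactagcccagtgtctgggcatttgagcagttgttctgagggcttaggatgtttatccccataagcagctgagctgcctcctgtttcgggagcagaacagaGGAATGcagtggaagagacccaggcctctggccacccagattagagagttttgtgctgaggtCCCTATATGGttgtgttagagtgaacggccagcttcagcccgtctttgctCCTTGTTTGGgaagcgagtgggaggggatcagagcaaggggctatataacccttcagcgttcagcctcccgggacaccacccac
Lmod1: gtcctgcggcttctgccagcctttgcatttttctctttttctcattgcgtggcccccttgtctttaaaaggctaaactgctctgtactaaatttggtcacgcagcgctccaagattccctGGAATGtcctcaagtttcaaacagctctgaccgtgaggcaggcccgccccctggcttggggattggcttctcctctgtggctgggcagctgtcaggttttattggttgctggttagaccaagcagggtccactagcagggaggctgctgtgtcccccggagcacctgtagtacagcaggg
Smtn: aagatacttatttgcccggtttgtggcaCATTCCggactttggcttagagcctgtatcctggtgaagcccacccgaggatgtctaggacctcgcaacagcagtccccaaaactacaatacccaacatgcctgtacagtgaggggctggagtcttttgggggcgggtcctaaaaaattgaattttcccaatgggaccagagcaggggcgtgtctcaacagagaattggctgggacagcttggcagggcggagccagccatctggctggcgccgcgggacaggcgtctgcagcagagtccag

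*Tagln*, which encodes the actin-bundling protein transgelin, held 264.8 and 290.8 CPM in stomach controls, 205.5 and 205.1 in stomach KO, 401.9 and 282.2 in intestinal controls, and 400.7 and 543.9 in intestinal KO. *Cnn1*, the gene of the myosin brake calponin, held 136.9 and 146.3, 99.4 and 87.5, 175.5 and 110.5, and 157.4 and 235.1 CPM in that order. Stomach KO was again lowest for both genes, without overlap, but the test of KO against control stomach called neither *Tagln* (-0.44, SE 0.19, adjusted p 0.235) nor *Cnn1* (-0.60, SE 0.25, adjusted p 0.203). Scaled by spike-in totals these values were 1.95 (adjusted p 0.0198) and 1.75 (adjusted p 0.0337), or -0.44 and -0.63 relative to the median gene. Both were higher in KO intestine than in KO stomach, *Tagln* by 1.20 (SE 0.20, adjusted p 0.0138) and *Cnn1* by 1.07 (SE 0.25, adjusted p 0.0479). *Tagln* lost its call without stomach KO replicate 1 (adjusted p 0.0717), stomach KO replicate 2 (adjusted p 0.0833) or intestinal KO replicate 2, where the log2 fold change was 0.97 (adjusted p 0.0347). *Cnn1* lost it without the same libraries, at 1.17 (adjusted p 0.135), 0.98 (adjusted p 0.228) and 0.76 (adjusted p 0.128). In the control organs *Tagln* differed by 0.30 (SE 0.19, adjusted p 0.547) and *Cnn1* by 0.01 (SE 0.25, adjusted p 0.996). The interaction, which asks whether the organ difference changed with genotype, was 0.90 for *Tagln* (SE 0.27, adjusted p 0.539) and 1.05 for *Cnn1* (SE 0.35, adjusted p 0.61), so neither gene was shown to differ in this way. DESeq2 gave *Tagln* an adjusted p of 0.18, under the fold threshold. With the organs paired by replicate number as blocks, a pairing that the labels do not state, *Cnn1* was called in the interaction, as were 2.16% of all genes.

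Adult *Tagln* was 260.6 and 379.8 CPM in controls and 420.7 and 500.1 in KO, and adult *Cnn1* was 42 and 90.3 against 149.4 and 185.8, without overlap. *Cnn1* was called higher (log2 fold change 1.34, SE 0.36, adjusted p 0.035) and *Tagln* was not (0.52, SE 0.24, adjusted p 0.162). By library totals and by spike-in totals the *Tagln* value was 0.03, or 0.52 and 0.44 relative to the median gene. In TPM *Tagln* stood at 427.4 and 605.5 in controls and 485.8 and 518.8 in KO, which overlapped. Without adult control replicate 1 the *Cnn1* value was 0.89 (adjusted p 0.0929) and without adult KO replicate 2 it was 1.17 (adjusted p 0.0823), neither called, while without adult control replicate 2 it was 2.00 (adjusted p 0.0013). Adult counting ignored strand, and 4.1% of the exonic bases of *Tagln* overlap *Pcsk7* on the other strand, which held 193 to 248 counts per adult library.

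*Myh11*, the smooth muscle myosin heavy chain, held 129.7 and 201.4 CPM in stomach controls, 121 and 268.3 in stomach KO, 198.3 and 256.5 in intestinal controls, and 206 and 1171 in intestinal KO. *Smtn* (smoothelin) held 53 and 64.8, 48.3 and 68.7, 71.1 and 76.2, and 61.9 and 132 CPM, and *Lmod1* (the filament nucleator leiomodin) held 14.6 and 14.4, 11.7 and 17.9, 16.8 and 13.4, and 17.1 and 39.8 CPM, in the same order. Except for the high intestinal KO replicate 2, the values of each gene interleaved between genotypes and organs, with *Smtn* in the control organs and *Lmod1* between intestinal genotypes as the pairs without overlap. KO against control intestine gave 1.60 for *Myh11* (SE 0.72, adjusted p 0.395), 0.40 for *Smtn* (SE 0.33, adjusted p 0.745) and 0.92 for *Lmod1* (SE 0.37, adjusted p 0.323). Without intestinal KO replicate 2 the *Myh11* value was -0.14 and the *Lmod1* value 0.18, and without replicate 1 both were called, at 2.37 (adjusted p 0.0391) and 1.40 (adjusted p 0.0349). Between the KO organs *Myh11* differed by 1.82 (SE 0.73, adjusted p 0.221), *Smtn* by 0.73 (SE 0.33, adjusted p 0.276) and *Lmod1* by 0.94 (SE 0.37, adjusted p 0.215). Those values were 0.08, 0.08 and 0.22 without intestinal KO replicate 2, and 2.59, 1.18 and 1.43 without replicate 1, where all 3 genes were called. With the organs paired by replicate number as blocks, a pairing that the labels do not state, *Myh11* was called at 1.46 (adjusted p 0.00798). *Smtn* at 0.66 (adjusted p 0.00956) and *Lmod1* at 0.87 (adjusted p 0.00646) were under the fold threshold in that fit. The widest log2 range over the 8 libraries among the members belonged to *Myh11* (3.27).

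In the adult libraries *Myh11* stood at 297.1 and 245.4 CPM in controls and 517.2 and 599.1 in KO, *Smtn* at 40.3 and 42.2 against 21.8 and 23.1, and *Lmod1* at 48.4 and 60.5 against 57.5 and 88. *Myh11* was called higher (log2 fold change 1.04, SE 0.20, adjusted p 0.0114), and its KO libraries lay above the controls. The call was lost at a value of 0.92 without adult control replicate 2 (adjusted p 0.0669) or adult KO replicate 2 (adjusted p 0.0192). *Smtn* passed the adjusted p alone in the other direction (-0.88, SE 0.20, adjusted p 0.0211), its KO libraries below the controls, and *Lmod1* overlapped (0.42, SE 0.26, adjusted p 0.281). Without 1 library the *Smtn* value ran from -0.93 to -0.84, and its pass depended on which library was left out. Of the exonic bases of *Smtn*, 16.3% overlap *Gm11946* on the other strand, which held 1 to 11 counts per adult library.

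*Des*, the gene of the intermediate filament desmin, held 43 and 42.5 CPM in stomach controls, 55.8 and 72.4 in stomach KO, 89.9 and 104.3 in intestinal controls, and 128 and 180.8 in intestinal KO, 4 ranges that did not overlap. Control intestine exceeded control stomach (log2 fold change 1.18, SE 0.19, adjusted p 0.0107) and KO intestine exceeded KO stomach (1.27, SE 0.19, adjusted p 0.00994). In controls the call held without intestinal control replicate 1 (1.30, adjusted p 0.0492) and was lost without intestinal control replicate 2 (1.07, adjusted p 0.072), stomach control replicate 1 (1.19, adjusted p 0.0738) or stomach control replicate 2 (1.18, adjusted p 0.0898). Between the KO organs *Des* lost its call in 1 of 4 fits without a library, that without stomach KO replicate 1 (1.09, adjusted p 0.0549). It was also not called there with the 4 KO libraries alone (1.28, adjusted p 0.0644) or by spike-in totals (1.05, adjusted p 1). The interaction was 0.09 (SE 0.27, adjusted p 1). Between genotypes *Des* differed by 0.58 in the stomach (SE 0.19, adjusted p 0.116) and 0.67 in the intestine (SE 0.19, adjusted p 0.126), neither called, the latter with adjusted p 0.0319 by DESeq2. Adult *Des* stood at 70.8 and 84.3 CPM in controls and 120.8 and 130 in KO, and passed the adjusted p alone (0.69, SE 0.19, adjusted p 0.0401). Leaving out any 1 adult library ended that pass, at values of 0.57 to 0.83. The adult value was 0.20 by library totals (adjusted p 0.424) and 0.24 by spike-in totals (adjusted p 0.826). Relative to the median gene these were 0.69 and 0.65. On the other strand *Gm15179* overlaps 5.86% of its exonic bases and held 6 to 13 counts per adult library.

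*Synpo2*, which encodes the Z-disc and actin-bundling protein myopodin, held 197.8 and 186.8 CPM in stomach controls, 139.3 and 184.7 in stomach KO, 502.3 and 413.4 in intestinal controls, and 294.8 and 522.7 in intestinal KO. Every intestinal library lay above every stomach library. It was higher in intestine than in stomach in controls (log2 fold change 1.25, SE 0.26, adjusted p 0.0314) and in KO (1.33, SE 0.26, adjusted p 0.0276), with an interaction of 0.08 (SE 0.37, adjusted p 1). The control call was lost without any 1 of the 4 libraries, at 1.12 to 1.39 (adjusted p 0.0853 to 0.189). The KO call was lost without stomach KO replicate 1 (1.15, adjusted p 0.136), stomach KO replicate 2 (1.56, adjusted p 0.0746) or intestinal KO replicate 2 (0.87, adjusted p 0.0458). Adult *Synpo2* was 33.2 and 23.2 CPM in controls and 21.3 and 20.6 in KO (-0.43, SE 0.25, adjusted p 0.268).

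Counts of called members were set beside the share of all tested genes called. Between control organs, a comparison of regional identity, 2 of 10 members were called, both higher in intestine, where 5.07% of 16218 genes were called (1.68% higher, 3.39% lower, and 6.83% by adjusted p alone). All 10 fitted values were above 0, with a median of 0.31, and 2 had an unadjusted p below 0.05, as did 17.6% of all genes. Between KO organs 5 of 10 were called, all higher in intestine, against 4.4% of genes (1.46% higher, 2.94% lower, 6.33% by adjusted p alone), with a median of 1.14, and 8 had an unadjusted p below 0.05, as did 19.9% of all genes. Without the low-count filter, or by DESeq2 with 1 spike-in factor, 7 members were called between the KO organs, *Acta2* and *Myh11* being added, against 3.83% and 5.28% of all genes in those fits. With the 4 KO libraries alone 1 member was called, *Tagln*, against 2.51% of genes, and by spike-in totals none was.

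**Figure D2:**
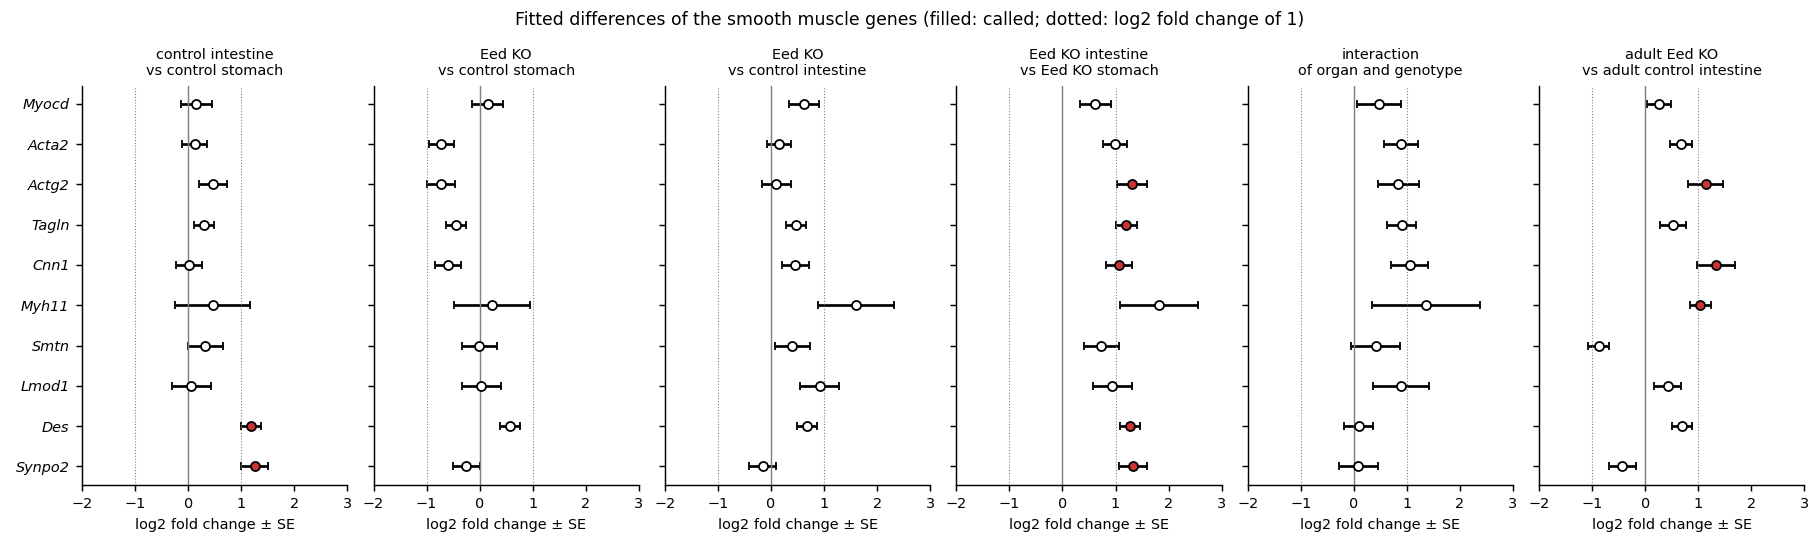
Log2 fold change ± SE of the 10 members in each of the 6 comparisons by edgeR, with filled red points for called members. Called members number 2 between control organs, 5 between KO organs, 3 in the adult comparison and 0 in the others.

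For the effect of *Eed* loss, edgeR called 0 of 10 members in the stomach, where 5.64% of genes were called (4.84% higher, 0.802% lower, 7.91% by adjusted p alone), and DESeq2 called 0, against 6.57% of genes. DESeq2 with 1 spike-in factor called 6 lower (*Acta2*, *Myh11*, *Actg2*, *Smtn*, *Lmod1* and *Synpo2*), with a median of -1.25, against 4.22% of genes. Spike-ins took 0.11% and 0.0909% of counts in stomach controls and 0.0337% and 0.0134% in stomach KO, and the intestinal genotypes differed in the same direction. The spike-in factor and genotype may therefore not be separable, and these 6 calls are not taken as a fall in KO. Unadjusted p was below 0.05 for 4 members, *Acta2*, *Cnn1*, *Actg2* and *Des*, and for 22.6% of all genes, and the median of the 10 was -0.13. In the intestine edgeR called 0 of 10, against 2.61% of genes (2.38% higher, 0.228% lower, 3.06% by adjusted p alone), with 3 members, *Tagln*, *Des* and *Lmod1*, and 14% of all genes at an unadjusted p below 0.05. DESeq2 called 0 there, against 4.22% of genes, and 0 with the spike-in factor, against 2.9%. The members' median in the intestine was 0.46, and -0.30 by DESeq2 with the spike-in factor. The interaction of organ and genotype gave 0 of 10 by edgeR, against 0.462% of genes (0.191% higher, 0.271% lower, 0.512% by adjusted p alone). DESeq2 called 0 in the interaction, against 1.28% of genes, and with the spike-in factor 3 (*Acta2*, *Cnn1* and *Lmod1*), against 1.48%. All 10 interaction values were above 0, with a median of 0.86 that was 0.04 without intestinal KO replicate 2, and 3 members, *Acta2*, *Tagln* and *Cnn1*, had an unadjusted p below 0.05, as did 5.88% of all genes. These 5 embryonic comparisons share control or KO libraries, so their values are set side by side and are not independent.

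The members called between the KO organs depended on which libraries were kept. Their number was 10 without intestinal KO replicate 1, 1 (*Des*) without intestinal KO replicate 2, 0 without stomach KO replicate 1 and 1 (*Des*) without stomach KO replicate 2. The share of all genes called also changed, from 4.4% to 2.88%, 3.13%, 2.28% and 1.82% in that order. The median of the members was 1.42 without intestinal KO replicate 1 and 0.74 without replicate 2, and all 10 values stayed above 0 in each of the 4 fits.

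**Figure D3:**
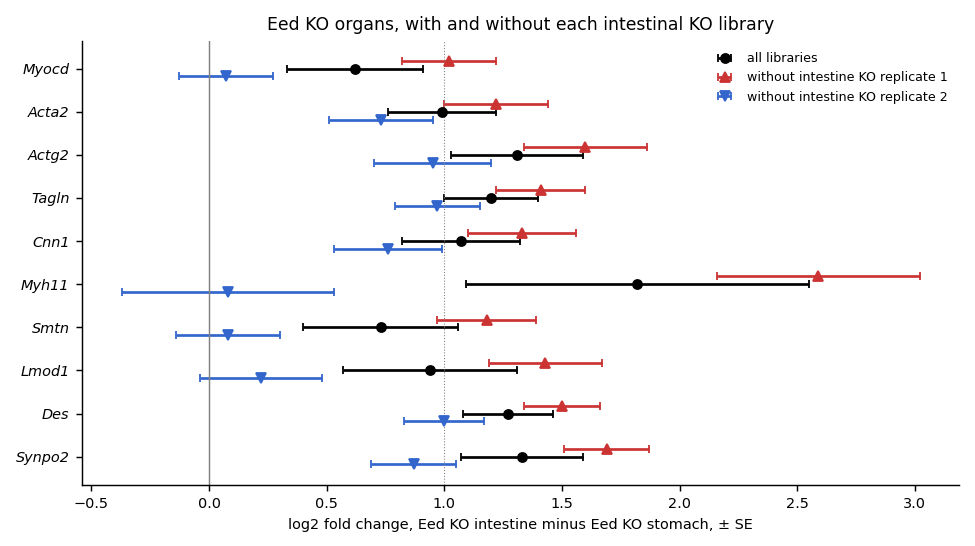
Log2 fold change of each member in KO intestine against KO stomach with all libraries, without intestinal KO replicate 1 and without intestinal KO replicate 2. *Myh11*, *Myocd* and *Smtn* move from 1.82, 0.62 and 0.73 to 0.08, 0.07 and 0.08 without replicate 2.

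Replicate numbers lined up between the organs of KO embryos: across genes, which are not independent replicates, the deviations of the replicates correlated with r = 0.628 between KO organs and 0.265 between control organs. With the organs paired by replicate number as blocks, an assumed pairing, 6 members were called between the KO organs and 2 between the control organs. *Myh11* (1.46, adjusted p 0.00798) was added to the 5 in the KO organs. The share of all genes called was then 6.97% between KO organs and 6.92% between control organs. Whether equal numbers mark the same embryos is not stated in the labels.

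Scaling by spike-in totals moved the median gene by 2.39 in KO against control stomach, by 1.85 in KO against control intestine, by 0.30 between control organs, by -0.24 between KO organs, by -0.53 in the interaction and by -0.42 in the adult comparison. Spike-in counts were 37590 and 36020 in stomach controls against 12108 and 4871 in stomach KO, and 26227 and 26837 in intestinal controls against 14932 and 5501 in intestinal KO. Relative to that median the members' median was -0.03 in KO stomach, 0.58 in KO intestine, 0.31 between control organs, 1.26 between KO organs, 0.91 in the interaction and 0.53 in the adult comparison. Under this scaling all 10 members passed the thresholds as higher in each KO organ against its control, with 95.2% and 84.4% of all genes, and 0 passed between organs.

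The adult comparison set libraries labelled *Eed* KO against controls, with *Eed* itself not called between them. It called 3 of 10 members, all higher in KO (*Myh11*, *Cnn1* and *Actg2*), against 19.6% of 15039 genes (12.3% higher, 7.23% lower). By adjusted p alone 5 members passed, against 23.5% of genes, *Des* and *Smtn* being added. The median of the 10 was 0.60, with 8 values above 0 and *Smtn* and *Synpo2* below, and 6 members had an unadjusted p below 0.05, as did 37% of all genes. DESeq2 called the same 3 members, against 20.7% of genes, and with 1 spike-in factor 2, *Cnn1* and *Actg2*, against 16.7%. Leaving out 1 library gave 1 called member (*Myh11*) without control replicate 1, 2 without control replicate 2, 3 without KO replicate 1 and 0 without KO replicate 2, where 15%, 16.6%, 19.5% and 14.4% of all genes were called.

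The 3 calls also depended on how libraries were scaled. The 10 most abundant genes took 10.9% and 11.2% of counts in adult controls and 16.9% and 18.7% in adult KO. Scaled by library totals, the median gene moved by -0.49 and the members' median relative to it was 0.59, but *Myh11* (0.55), *Cnn1* (0.85) and *Actg2* (0.65) were not called and *Smtn* was called lower (-1.37, adjusted p 0.00381). Relative to the median gene these 4 values were 1.04, 1.34, 1.14 and -0.88, as under TMM. By spike-in totals the 3 genes stood at 0.64, 0.78 and 0.59, or 1.06, 1.20 and 1.01 relative to the median gene, and 0 members were called. In TPM the summed members were 2403 and 3022 in controls and 2867 and 3053 in KO, which overlapped.

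Markers of other cell types moved in the same libraries, and their part in the members' values was not tested. In this comparison 12.3% of all genes were called higher and 7.23% lower. Macrophage and leukocyte markers were higher in adult KO for 10 of 10 genes, from 710.9 and 1052 summed CPM in controls to 22177 and 21120 in KO, with *Lyz2* the most abundant (8314 and 6614 CPM in KO) and none at 0. Pericyte markers were lower for 3 of 8, from 13538 and 11627 to 4543 and 3317 summed CPM, and none was at 0. Nearly all of that sum was *Rgs5* (13184 and 11315 CPM in controls, 4333 and 3069 in KO). *Kcnj8* (65.3 and 56.3 against 17.2 and 20.1) and *Abcc9* (46.2 and 36.1 against 17.2 and 20.8) were also called lower. *Pdgfrb* (162.2 and 123.9 against 89.2 and 92.8) and *Cspg4* (30.7 and 40.1 against 25.1 and 23.7) were lower without a call. *Notch3* stood at 19.2 and 19.6 against 25.9 and 29.3, *Cox4i2* at 23.4 and 31.2 against 30.5 and 49.2, and *Higd1b* at 6.29 and 5.33 against 5.12 and 11.7. Fibroblast markers were lower for 5 of 8, from 28736 and 31930 to 17246 and 15716 summed CPM, with *Dcn* the most abundant and none at 0. Side by side, the summed members stood at 1965 and 2410 CPM in controls and 3276 and 3872 in KO.

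**Figure D4:**
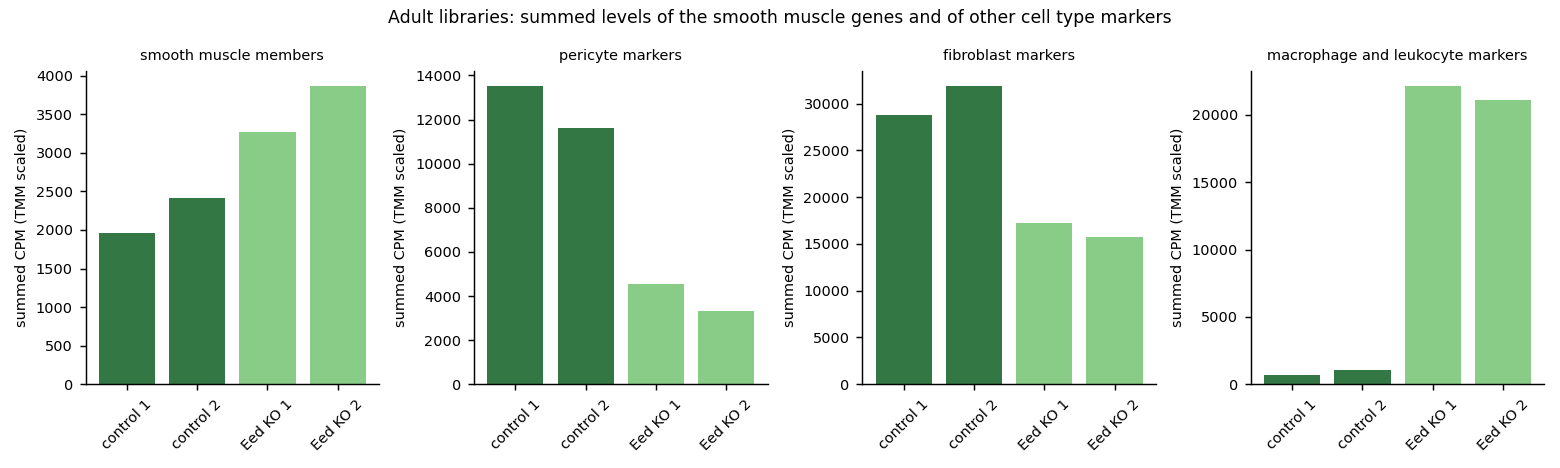
Summed normalised level (CPM) of the members and of pericyte, fibroblast and macrophage markers in the 4 adult libraries. Macrophage markers stand at 22177 and 21120 in KO against 710.9 and 1052 in controls, while the members stand at 3276 and 3872 against 1965 and 2410.

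In the embryonic libraries endothelial markers were called higher for 4 of 8 genes in KO stomach and 3 of 8 in KO intestine, where 4.84% and 2.38% of all genes were called higher. Without 1 library the stomach calls held in 4 of 4 fits for *Cdh5*, 2 for *Pecam1* and 0 for *Tie1*. The intestinal calls held in 2 of 4 fits for *Cdh5*, 0 for *Tie1* and 1 for *Esam*. The summed level of the endothelial markers was 24.7 and 23.2 CPM in stomach controls, 36.5 and 57.2 in stomach KO, 22.9 and 27.8 in intestinal controls, and 62 and 60.4 in intestinal KO, with *Kdr* the most abundant and none at 0. Fibroblast markers summed to 13155 and 21985 CPM in intestinal KO replicates 1 and 2 and 17465 and 25583 in the stomach ones, with *Col3a1* the most abundant and none at 0. Between KO organs 1 of 8 was called, lower in intestine, where 2.94% of all genes were called lower. Whether either list bears on the members was not tested.

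Over all genes 4.84% were called higher in KO stomach and 2.38% in KO intestine. Among listed activators of the *Myocd* pathway, *Gata6* was the 1 of 6 called in KO stomach (log2 fold change 1.54, adjusted p 0.0115) and in KO intestine (1.28, adjusted p 0.0397). Each of those calls held in 1 of the 4 fits that left out a library. *Gata6* was also called lower in KO intestine than in KO stomach (-1.25, adjusted p 0.0259), a call that held in 0 of 4 such fits. In adult KO the activator *Mef2c* was called higher (1.89, adjusted p 0.000925), in 4 of 4 such fits. By spike-in totals adult *Mef2c* was not called (1.44, adjusted p 0.0776). The repressor *Klf4*, 1 of 7 listed, rose from 12.1 and 15.6 CPM to 34.9 and 38.6 CPM in KO stomach (1.41, SE 0.15, adjusted p 0.00234), a call that held without each of the 4 libraries. In KO intestine its value was 1.22 (adjusted p 0.00954), called in 2 of 4 such fits. *Klf4* was called lower in KO intestine than in KO stomach (-1.22, adjusted p 0.00473), in 4 of 4 such fits. It was also lower in control intestine than in control stomach (-1.03, adjusted p 0.00754), called in 1 of 4. In adult KO *Klf4* was called higher (1.03, adjusted p 0.0484), in 2 of 4 such fits, and not by library totals (0.53, adjusted p 0.197). Of 33 other contractile and cytoskeletal genes, 4 were called higher in KO intestine than KO stomach, *Mylk*, *Ppp1r12b*, *Ppp1r14a* and *Ldb3*, with a list median of 0.50 beside 1.14 for the members, where 1.46% of all genes were called higher. Without 1 library these calls held in 1, 3, 2 and 1 of 4 fits, in that order. In the adult comparison 6 of 34 were called higher and 4 lower, where 12.3% of all genes were called higher and 7.23% lower. The adult median of this list was -0.17 beside 0.60 for the members. Among 17 excitation and signalling genes the muscarinic receptor gene *Chrm3* fell in KO stomach from a mean of 31.5 CPM to 12.5 CPM, without overlap of libraries (-1.33, SE 0.12, adjusted p 0.00118), and was called in each of the 4 fits without 1 library. It was the 1 of 17 called in the interaction (1.12, adjusted p 0.073, threshold 0.2), where 0.462% of all genes were called. Scaled by spike-in totals the *Chrm3* value in KO stomach was 1.11, or -1.28 relative to the median gene. Its interaction was then 0.52 (adjusted p 0.926), not called, or 1.05 relative to the median gene.

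Similarity of profile was measured as the root mean square difference of centred log2 CPM over the 8 embryonic libraries. *Tagln* lay closest to the mean of the other members (0.2) and *Myh11* farthest (0.636). Of 13376 genes outside the members, *Mylk* (0.103), *Myl9* (0.12), *Jph2* (0.127), *Mrvi1* (0.137) and *Sox5* (0.141) lay nearest to the members' mean profile, where the median gene stood at 0.513. For *Myocd* alone the nearest of 13385 genes were *Adcy5* (0.114), *Pbxip1* (0.117), *Atp2b4* (0.122), *Nexn* (0.129) and the member *Lmod1* (0.131), against a median of 0.434. The other members ranked from 29 (*Smtn*, 0.202) to 11934 (*Myh11*, 0.622), and *Myh11*, *Synpo2* (0.554), *Des* (0.495) and *Actg2* (0.455) lay farther from *Myocd* than the median gene.

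All 10 members had an ATAC-seq peak within 1000 bases of a start site in each of the 4 lists. Of 16191 tested genes with a position, 88% had one in control intestine, 88.4% in control stomach, 89.1% in KO intestine and 89.1% in KO stomach. The median fold enrichment of the members' peaks was 5.11, 5.61, 4.82 and 4.93 in that order, below the medians of all such peaks, 6.91, 6.8, 6.46 and 6.69. *Lmod1* carried the highest member enrichment in each list, at 8.45, 7.2, 6.31 and 7.4. The *Smtn* peak lay at the edge of its window: the gene model started at 3540612, and the control intestinal peak ran from 3539041 to 3539654 on chromosome 11. The RefSeq start of *Smtn*, used for its promoter sequence, was 3539292, 1320 bases from the model start and inside that peak. The *Myocd* peak stood at 6.92 and 6.53 in control intestine and stomach and at 4.41 and 4.73 in KO intestine and stomach. Its width was 1600 and 1656 bases in controls and 2993 and 2968 in KO, the control intestinal peak running from 65269682 to 65271281 on chromosome 11 (GRCm38). *Acta2* showed 5.18, 5.73, 5.15 and 5.18. With 1 list per group and no scaling between lists, none of these differences was tested.

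**Figure D5:**
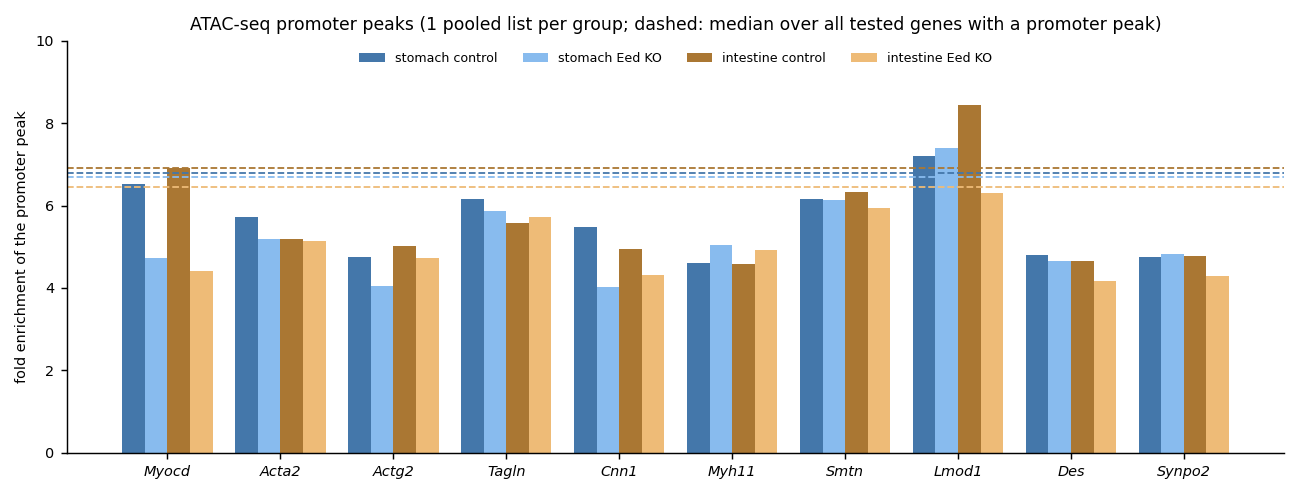
Fold enrichment of the promoter peak of each member in the 4 ATAC-seq lists, with dashed lines at the median of all promoter peaks in each list. *Lmod1* is the highest member in every list and *Myocd* stands at 6.92 and 6.53 in control lists and 4.41 and 4.73 in KO lists.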

How the data were processed

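RNA was measured in 12 libraries and open chromatin in 4 pooled peak lists. The deposited RNA files hold raw counts per gene, which the authors made with Trimmomatic 0.32, STAR 2.5.1b and featureCounts on GRCm38 and GENCODE vM4 (embryonic: version 2.5.0 per the labels; adult: 1.5.0 per the file headers, read without strand). The paper's methods give other versions of featureCounts for both. The embryonic kit was stranded, and the strand setting of the embryonic counts is not given. The deposited peak lists give fold enrichment, a ratio over the MACS2 2.1.2 background, and -log10 q, as the authors' pooled replicates produced them.

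Counts were scaled by TMM, filtered with filterByExpr and tested with edgeR 4.0.16 quasi-likelihood fits (R 4.3.3), Benjamini-Hochberg adjusted over all genes tested (16218 embryonic, 15039 adult). Adjusted p below 0.05 (0.2 for the interaction) and an absolute log2 fold change above 1 counted as called. The biological coefficient of variation was 15.8% in embryonic and 29.1% in adult libraries. CPM used TMM-scaled totals, and TPM used exonic lengths from the adult files. Spike-ins (92 ERCC, 7 SIRV) were left out of the tests. Peaks within 1000 bases of a start site were counted as promoter peaks. Fits were also run on simulated counts that gave every gene the same spread, smaller than that of the adult libraries, so they do not speak for the adult fit. DESeq2 1.42.0, other scalings, blocks, filters and the omission of each library were run as alternatives. Of these, DESeq2 with 1 spike-in factor came closest to the study's own method, spike-in normalisation by RUV-seq followed by DESeq2. Python 3.11.15 with pandas 2.3.3, numpy 2.4.6 and matplotlib 3.10.9 made tables and plots.

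Named genes were all members, *Eed*, up to 4 called genes per list and comparison with the largest absolute log2 fold change and a mean of at least 1 CPM, and the 5 most similar genes for the members and for *Myocd*. Only part of the called genes selected by this rule are given in the text. *Xist*, *Ddx3y*, *Notch3*, *Cox4i2*, *Pdgfrb*, *Cspg4*, *Higd1b*, overlapping genes and the most abundant marker of a list were named after their values were seen. Members and lists were chosen with earlier results of these data known.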

Additional observations from a re-analysis of the deposited data

How the results depend on the processing

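Over the members and named genes, 1461 alternative values were computed: 1156 kept their direction and side of the thresholds, 207 kept direction and fell short of a threshold, 36 kept direction and newly passed, and 62 changed sign. DESeq2 with its own size factors changed neither direction nor call for 133 values, though among the members *Acta2* in KO stomach and adult, *Des* in KO intestine and *Tagln* in the interaction newly passed the adjusted p threshold, each under the fold threshold. Where not otherwise stated, the cause of a change was not tested.

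Scaling by spike-in totals turned these KO stomach values positive: *Acta2* 1.70, *Actg2* 1.67, *Cnn1* 1.75, *Tagln* 1.95, *Synpo2* 2.23, *Smtn* 2.48, *Chrm3* 1.11, *Gpr20* 1.38, *Lyz2* 1.36 and *Eed* 0.14. *Synpo2* became 1.84 in KO intestine, and the interaction became -0.42 for *Des*, -0.01 for *Smtn* and -0.39 for *Synpo2*. Adult *Lmod1* became -0.08 and *Myocd* -0.21. Called members numbered 10 in KO stomach, 10 in KO intestine, 0 between KO organs, 0 between control organs and 0 in the adult comparison. The sign changes and the 10 calls in each KO organ against its control follow a shift of the median gene by 2.39 in KO stomach and 1.85 in KO intestine, and relative to it the members' median was -0.03 and 0.58.

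Scaling by library totals, added after the data were seen, gave -0.02 for *Cnn1* between control organs, 0.02 for *Smtn* in KO stomach, and -0.08 and -0.24 for adult *Lmod1* and *Myocd*. It called 1 adult member, against 27.5% of all genes. Without TMM the members summed to 2584 CPM in adult controls and 3003 in adult KO.

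DESeq2 with 1 spike-in factor gave, for KO against control intestine, *Acta2* -0.32, *Actg2* -0.47, *Lmod1* -0.29, *Myh11* -1.01, *Myocd* -0.28 and *Smtn* -0.64. In KO stomach it gave *Des* -0.04, *Lmod1* -1.45, *Myh11* -2.60 and *Myocd* -0.97, and between control organs *Cnn1* -0.07, *Lmod1* -0.20 and *Myocd* -0.05. It called 6 members in KO stomach, all lower. It called 3 in the interaction, 7 between KO organs and 2 in the adult comparison, all higher. In the embryonic libraries the spike-in share of counts differed with genotype, so this factor and genotype may not be separable.

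Without the low-count filter 1 member was called in the interaction, against 0.934% of all genes, and 7 between KO organs, against 3.83%. Without a fold threshold 5 passed in the adult comparison, against 23.5% of all genes. Fitting only the 4 libraries of the KO organs left 1 call between them. Organs paired by replicate number as blocks gave 1 call in the interaction and -0.02 for *Cnn1* between control organs. A replicate-number term in the genotype comparison gave -0.0036 for *Lmod1* in KO stomach. The relaxed CArG form, added after the data were seen, matched 1 member.

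Leaving out each library in turn leaves a lone sample in its group, which is assumed to vary like the other groups. The members' median log2 fold change then ranged from 0.39 to 0.83 in the adult comparison and from 0.04 to 0.43 between control organs. It ranged from -0.02 to 0.78 in KO against control intestine and from 0.74 to 1.42 between KO organs. For KO against control intestine values ranged from -0.14 to 0.51 for *Acta2*, -0.26 to 0.53 for *Actg2*, -0.14 to 2.37 for *Myh11*, -0.25 to 0.84 for *Smtn* and -0.64 to 0.19 for *Synpo2*. In KO stomach they ran from -0.30 to 0.30 for *Lmod1*, -0.46 to 0.69 for *Myh11*, -0.07 to 0.34 for *Myocd* and -0.29 to 0.22 for *Smtn*. Control organs gave -0.23 to 0.41 for *Acta2*, -0.34 to 0.31 for *Cnn1*, -0.10 to 0.21 for *Lmod1* and -0.04 to 0.33 for *Myocd*. Interaction values spanned -0.19 to 0.31 for *Des*, -0.38 to 2.13 for *Myh11*, -0.08 to 0.87 for *Myocd*, -0.24 to 0.85 for *Smtn* and -0.39 to 0.44 for *Synpo2*.

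Each group holds 2 libraries, which limits what the tests can call, and each peak list is 1 pool without replicates. Adult counts cannot separate strands, and reads mapping to both *Acta2* and *Actg2* were not measured. Whether replicate numbers mark the same embryos is not given, so the blocks rest on an assumption. All members lay far above the count floors, so depth did not limit their detection.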
